A study of Mus musculus with 12 samples.

Results

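Transient receptor potential (TRP) channels were described in the mandibular condylar fibrocartilage, which lines the mandible's side of the jaw joint. The 8 genes were Trpc1, Trpc4, Trpc6, Trpv2, Trpv4, Trpm4, Trpm7 and Pkd2, found by symbol among the 23284 genes of the deposited count table, which held 28 TRP channel genes in all. They were chosen by the higher count level of Trpc6 under estradiol in wild type, and for the part that TRP channels play in cartilage mechanosensing. The samples came from female C57BL/6 mice, all of which were ovariectomized at 16 weeks of age and carried a pellet for 1 week until harvest at 17 weeks. The pellet held placebo or 0.01 mg of estradiol (E2) with a release time of 60 days. Of the 12 libraries, 5 came from wild type (WT) mice, 2 with placebo and 3 with E2. The other 7 came from mice that lack estrogen receptor alpha by knockout (ERalphaKO), 4 with placebo and 3 with E2. The sources used here did not give the part of the receptor gene that was removed, the cells in which it was removed, or whether replicates came from separate animals. P-values therefore measure only the spread between these samples, which may be technical.

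TRP channels are cation channels assembled from several subunits, and most of them let calcium into the cell. TRPC channels open downstream of receptors that activate phospholipase C, and TRPC6 responds directly to diacylglycerol. TRPV4 opens with cell swelling and matrix strain and is a main route of calcium entry in loaded chondrocytes, and mutations of its gene cause skeletal dysplasias in humans. Pkd2 encodes polycystin-2, which pairs with polycystin-1 in the primary cilium.

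Total counts per library ranged from 9.70 M to 28.8 M. Esr1, the gene for the receptor, stood at 15.9 ± 2.35 and 10.4 ± 1.77 CPM (counts-per-million; mean ± SD) in WT under placebo and E2 (n = 2 and 3), and at 4.63 ± 0.949 and 5.33 ± 0.680 CPM in ERalphaKO (n = 4 and 3). The highest of the 7 ERalphaKO libraries, at 5.78 CPM, lay below the lowest of the 5 WT libraries, at 8.52 CPM. The 10 fibrocartilage and chondrocyte markers, Col2a1, Acan and Prg4 among them, were counted in every library and summed to between 37707 and 64220 CPM. Osteoblast and osteocyte markers (8 genes, 4010 to 10247 CPM) and osteoclast markers (8 genes, 6790 to 10248 CPM) were also present in every library, and per the labels the RNA came from every cell of the tissue piece. Skeletal muscle markers (12 genes) summed to between 216 and 1009 CPM in WT under E2 and between 10.2 and 48.9 CPM in ERalphaKO under E2. Under placebo they ranged from 9.44 to 2175 CPM in WT and from 14.2 to 5398 CPM in ERalphaKO. Granulocyte markers (10 genes) reached 16871 CPM in ERalphaKO placebo replicate 3 and 7260 CPM in ERalphaKO E2 replicate 1 against at most 1133 CPM in WT, and the ERalphaKO results of Trpc6, Trpv4 and Trpm4 are given with and without them, a setting chosen after the data were seen.

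The promoter of Trpc6 is shown because it is the start of the gene that stood apart under E2, and those of Pkd2 and Trpm7 because they hold the letters searched for while their counts did not change detectably. Each is the 250 bases before the RefSeq start site in build GRCm38.p6, 5′ to 3′ on the strand of the gene, and capitals mark the estrogen receptor half-site GGTCA on either strand.
Trpc6, chr9:8543892-8544141, plus strand: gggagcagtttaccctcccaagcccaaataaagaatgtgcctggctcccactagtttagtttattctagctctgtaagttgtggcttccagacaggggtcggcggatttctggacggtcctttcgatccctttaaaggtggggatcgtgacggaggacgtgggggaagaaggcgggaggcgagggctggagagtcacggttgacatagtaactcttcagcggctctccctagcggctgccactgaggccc
Pkd2, chr5:104459207-104459456, plus strand: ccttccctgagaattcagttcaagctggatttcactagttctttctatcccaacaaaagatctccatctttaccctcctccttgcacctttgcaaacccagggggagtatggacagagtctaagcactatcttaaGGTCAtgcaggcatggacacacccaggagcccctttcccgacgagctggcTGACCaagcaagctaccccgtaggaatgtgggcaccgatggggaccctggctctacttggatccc
Trpm7, chr2:126876262-126876511, minus strand: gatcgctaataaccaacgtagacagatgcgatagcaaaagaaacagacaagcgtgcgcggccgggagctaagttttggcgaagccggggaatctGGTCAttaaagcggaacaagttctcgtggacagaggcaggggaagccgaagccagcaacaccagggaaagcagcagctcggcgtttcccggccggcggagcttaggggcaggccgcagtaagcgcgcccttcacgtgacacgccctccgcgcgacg

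The Trpc6 window held neither the full palindromic estrogen response element (GGTCA, any 3 bases, then TGACC) nor its half-site GGTCA on either strand. Pkd2 held 2 half-sites, whose first bases lay 115 and 65 bases before the start, and Trpm7 held 1, at 156 bases. Over the members with an entry in the RefSeq table (7 of 8, with 9 promoters), 3 genes had a half-site and 0 the full element, the third gene being Trpv2 at 1 of its 3 start sites. Counted by promoter, 3 of the 9 held the half-site. Of all 32851 RefSeq promoter windows of the same length, 35.2% held the half-site and 0.0639% the full element. Among the 8 genes most like Trpc6 over the libraries, named below, 4 had an entry. Of their 5 promoters, 4 held the half-site, and 0 of these genes had the full element. A match in these letters is a description and no binding site. The counts came from alignments to build mm9, so the coordinates serve only to place these sequences.

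Trpc6 was the one member with a large difference, and its E2 difference in WT is what chose it, so that difference is described here and not tested. Counts of Trpc6 were 4.46 and 2.60 CPM in WT placebo replicates 1 and 2. They were 58.4, 42.0 and 75.6 CPM in WT E2 replicates 1 to 3. In ERalphaKO they were 1.32, 1.53, 2.83 and 2.09 CPM under placebo and 2.05, 1.37 and 1.84 CPM under E2. The 3 WT E2 libraries thus stood far above the other 9, the lowest of them at 42.0 CPM and the highest of the others at 4.46 CPM. The group means were 3.53 ± 1.31 CPM in WT under placebo (SD, n = 2) and 58.7 ± 16.8 CPM under E2 (n = 3), a log2 fold change of 4.07 ± 0.39 (SE). Of all 14832 genes tested, 0.371% were called higher in this contrast and 13.2% had all their WT E2 libraries above both placebo ones, from which nothing is read for Trpc6.

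E2 in ERalphaKO is the contrast of Trpc6 that shares no library with the one that chose it. There the mean was 1.94 ± 0.674 CPM under placebo (SD, n = 4) and 1.75 ± 0.349 CPM under E2 (n = 3). The ranges of these groups overlapped, and the log2 fold change was -0.14 ± 0.33 (edgeR quasi-likelihood test, adjusted p = 1), with a 95% interval from -0.86 to 0.58. Without the granulocyte-rich libraries this log2 fold change was -0.02 (adjusted p = 1.00). The order of group means was WT E2, WT placebo, ERalphaKO placebo and ERalphaKO E2. WT E2 alone did not overlap its neighbour, and the other 3 groups overlapped one another in that order. Contrasts that hold a WT group are again descriptions: ERalphaKO against WT gave -0.83 ± 0.33 under placebo and -5.04 ± 0.36 under E2, and the E2 effect in ERalphaKO minus that in WT was -4.21 ± 0.49. Without the granulocyte-rich libraries these 3 values were -1.04, -5.13 and -4.09. Without WT placebo replicate 1 or 2 the E2 log2 fold change in WT was 4.49 or 3.72. An annotated noncoding RNA, Gm32014, lies on the opposite strand of Trpc6, and whether counting used strand is not given in the sources used here.

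Osteoblast and osteocyte markers were highest in the WT E2 libraries, as Trpc6 was, when their counts were summed. Their 8 genes summed to 8259, 6193 and 10247 CPM in WT E2 replicates 1 to 3 and to between 4010 and 5700 CPM in the other 9 libraries, and none of the 8 was at 0 in any library. The WT E2 libraries had the same order for Trpc6 and for this sum, lowest in replicate 2 and highest in replicate 3. By the mean log2 CPM of the 8 genes, WT E2 replicate 2 (8.68) lay below both WT placebo libraries (8.89 and 8.74). That measure thus did not set the WT E2 libraries apart. Endothelial markers (9 genes) summed to 483, 306 and 557 CPM in WT E2 replicates 1 to 3 and to between 322 and 401 CPM elsewhere. The 10 markers of vascular smooth muscle and pericytes, cells known to express Trpc6, summed to between 975 and 1159 CPM in WT under E2, between 1286 and 1389 CPM in WT under placebo, between 1065 and 1271 CPM in ERalphaKO under placebo and between 1000 and 1191 CPM in ERalphaKO under E2. By mean log2 CPM these 10 markers stood at 5.10, 4.71 and 4.73 in WT under E2 and at 4.50 and 5.13 under placebo. The part of the 3 marker lists in the Trpc6 difference was not tested. In RNA from whole tissue, fewer or more cells of a type and less or more RNA per cell cannot be told apart.

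**Figure D1:**
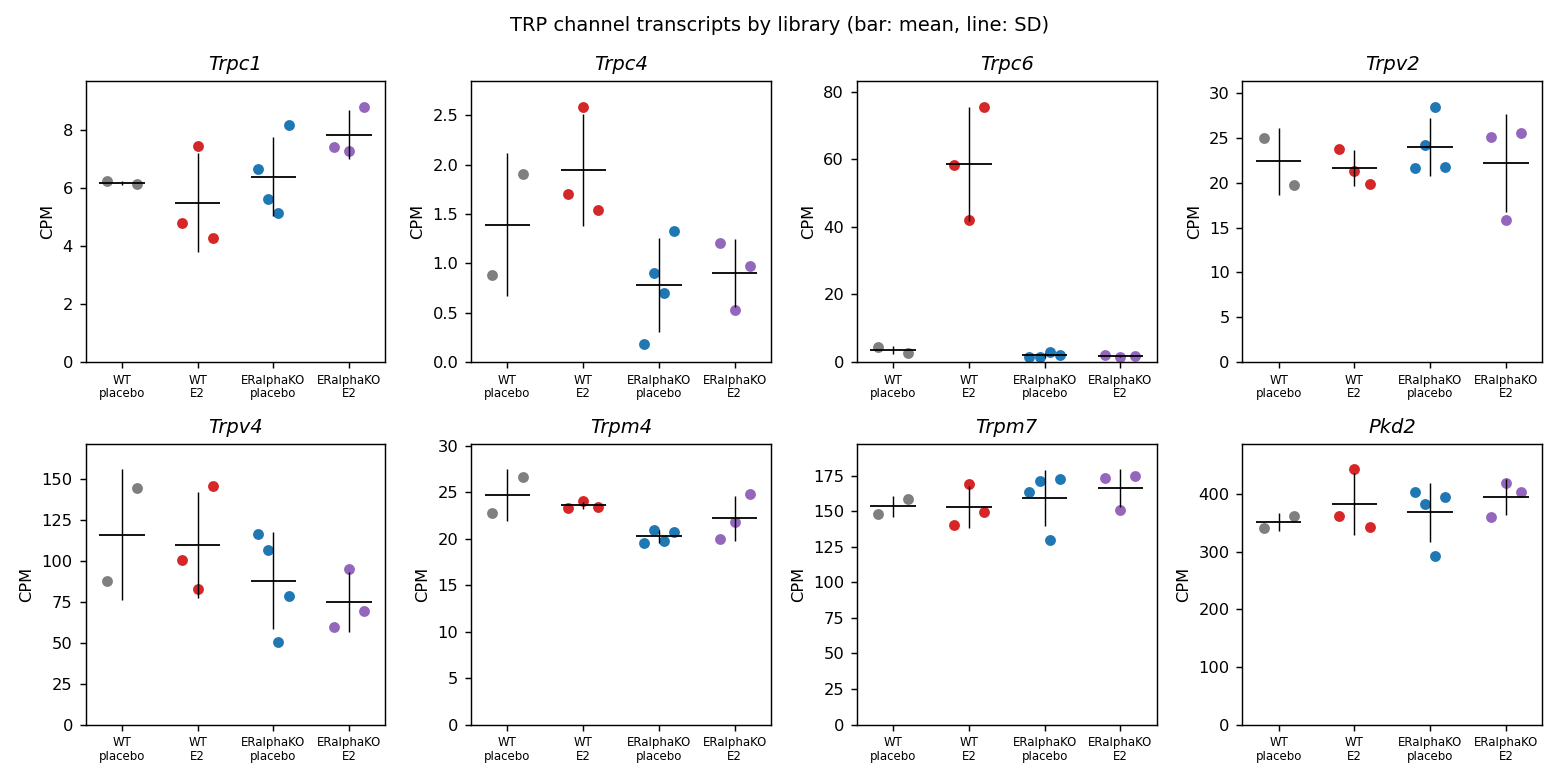
Counts-per-million (CPM, y axis from 0) of the 8 TRP channel genes in each of 12 libraries by group (x axis). Points are libraries, horizontal bars group means and vertical lines the SD. Trpc6 stands at 42.0 to 75.6 CPM in the 3 WT E2 libraries and at 1.32 to 4.46 CPM in the other 9. The other 7 genes show no step of this size.

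The other TRPC members are low-count genes. Trpc1, a widely expressed subunit that joins other TRPC subunits in mixed channels, stood at 6.22 and 6.12 CPM in WT under placebo and at 4.77, 7.44 and 4.25 CPM under E2. In ERalphaKO it stood at 6.64, 5.59, 5.11 and 8.17 CPM under placebo and at 7.41, 7.25 and 8.79 CPM under E2. Its groups overlapped between every pair of neighbours in the order ERalphaKO E2, ERalphaKO placebo, WT placebo, WT E2. E2 gave -0.17 ± 0.26 in WT and 0.30 ± 0.22 in ERalphaKO on the log2 scale (edgeR, adjusted p = 0.919 and 0.981), and ERalphaKO against WT under E2 gave 0.51 ± 0.23 (adjusted p = 0.439).

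Trpc4, which forms receptor-operated and store-linked calcium channels, was the least counted member. It stood at 0.880 and 1.91 CPM in WT under placebo and at 1.71, 2.59 and 1.54 CPM under E2, against 0.180, 0.902, 0.697 and 1.33 CPM in ERalphaKO under placebo and 1.20, 0.526 and 0.971 CPM under E2. Under E2 the 3 ERalphaKO libraries were each lower than any WT one, a separation that 8.94% of all genes tested had. The log2 difference of -1.07 ± 0.57 did not pass the test (edgeR, adjusted p = 0.518, 95% interval -2.33 to 0.18), and under placebo it was -0.83 ± 0.58 with overlapping groups (adjusted p = 0.724). Under the alternatives that kept or regrouped the libraries in other ways than leaving out 1, the value under E2 ranged from -1.30 to -0.37. Skeletal muscle markers were also lower in ERalphaKO than in WT under E2, without overlap. Their part in the Trpc4 difference was not tested. Trpc4 counts ran from 3 to 55 per library, and this depth leaves the wide intervals given.

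Trpv4, the channel of strain and osmotic sensing in chondrocytes, varied widely within groups. It stood at 88.0 and 144 CPM in WT under placebo and at 101, 82.8 and 146 CPM under E2. ERalphaKO libraries held 117, 107, 50.4 and 78.4 CPM under placebo and 59.8, 95.5 and 69.2 CPM under E2. The means fell in the order WT placebo (116 ± 39.9 CPM), WT E2 (110 ± 32.6 CPM), ERalphaKO placebo (88.1 ± 29.9 CPM) and ERalphaKO E2 (74.8 ± 18.5 CPM; SD, n = 2, 3, 4 and 3), with every neighbouring pair overlapping. E2 gave -0.08 ± 0.36 in WT and -0.24 ± 0.31 in ERalphaKO (edgeR, adjusted p = 0.978 and 0.997). Genotype gave -0.40 ± 0.34 under placebo and -0.56 ± 0.33 under E2 (adjusted p = 0.778 and 0.575), with a 95% interval of -1.28 to 0.17 under E2.

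The lowest Trpv4 levels were in ERalphaKO placebo replicate 3 and ERalphaKO E2 replicate 1, the libraries with the most granulocyte marker counts. With these 2 libraries left out, the genotype log2 difference was -0.20 under placebo and -0.40 under E2, and E2 in ERalphaKO gave -0.29 (edgeR, adjusted p = 0.847, 0.707 and 0.948). Over the 12 libraries the log2 CPM of Trpv4 correlated with the summed fibrocartilage and chondrocyte markers at 0.67 (Pearson), a description over libraries that share depth and tissue composition.

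Trpv2, a channel of macrophages and other cells that is linked to stretch, ranged from 15.9 to 28.5 CPM, with group means of 22.4 ± 3.75, 21.6 ± 1.98, 24.0 ± 3.22 and 22.2 ± 5.47 CPM in WT placebo, WT E2, ERalphaKO placebo and ERalphaKO E2 (SD, n = 2, 3, 4 and 3). Its highest library was ERalphaKO placebo replicate 3 and its lowest ERalphaKO E2 replicate 2, and all groups overlapped. The 4 contrasts of Trpv2 lay between -0.11 and 0.10 on the log2 scale (edgeR, lowest adjusted p = 0.913).

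Trpm4, a sodium-conducting channel that calcium inside the cell opens, held 22.7 and 26.6 CPM in WT under placebo and 19.6, 20.9, 19.7 and 20.7 CPM in ERalphaKO under placebo. All 4 of these ERalphaKO libraries lay below both WT libraries, which 10.6% of all genes tested did. The log2 difference was -0.29 ± 0.10 (edgeR, adjusted p = 0.457, unadjusted p = 0.0160), and 8.93% of all genes had an unadjusted p under 0.05. Without the granulocyte-rich libraries it was -0.27 (adjusted p = 0.375). The 7 lymphocyte markers summed to between 69.7 and 188 CPM in ERalphaKO under placebo and between 1.54 and 3.17 CPM in WT under placebo, and their part in the Trpm4 difference was not tested. Under E2 the genotypes overlapped, at 23.3, 24.0 and 23.4 CPM in WT and 19.9, 21.8 and 24.8 CPM in ERalphaKO (-0.09 ± 0.10, adjusted p = 0.809). E2 gave -0.07 ± 0.11 in WT and 0.13 ± 0.09 in ERalphaKO (adjusted p = 0.924 and 0.961). Without the granulocyte-rich libraries genotype under E2 gave -0.00 and E2 in ERalphaKO 0.19 (edgeR, adjusted p = 0.998 and 0.846).

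Trpm7, a magnesium and calcium channel fused to a kinase, and Pkd2 each varied little between libraries. Trpm7 ranged from 130 to 175 CPM over the 12 libraries and Pkd2 from 293 to 443 CPM, both lowest in ERalphaKO placebo replicate 3. Group means of Trpm7 were 153 ± 7.41, 153 ± 14.7, 159 ± 19.9 and 166 ± 13.4 CPM, and those of Pkd2 352 ± 15.2, 383 ± 53.1, 369 ± 51.4 and 395 ± 30.6 CPM, in the group order used for Trpv2. E2 gave -0.00 ± 0.13 for Trpm7 and 0.12 ± 0.15 for Pkd2 in WT (edgeR, adjusted p = 0.999 and 0.897), with 95% intervals of -0.29 to 0.29 and -0.22 to 0.46. A 2-fold change of either gene with E2 in WT lies outside these intervals.

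Read against all genes, 0 of the 7 members other than Trpc6 were called in any contrast (edgeR, adjusted p under 0.05). Either direction together, 0.458% of all genes were called for E2 in WT, 0% for E2 in ERalphaKO, 0.0135% for genotype under placebo, 1.1% for genotype under E2 and 0.0539% for the genotypes' difference in E2 effect. DESeq2 called 0 of the 7 as well. At an unadjusted p under 0.05 edgeR had 1 of the 7, Trpm4 under placebo, where the shares of all genes were 8.14%, 5.7%, 8.93%, 11.5% and 6.78% in the same order of contrasts. For E2 in ERalphaKO, 0 of the 8 members had libraries without overlap, against 5.67% of all genes. With these shares near 0, a count of 0 among 7 genes does not set the members apart from the other genes. The median log2 fold change of the 8 members was -0.03 for E2 in WT, 0.08 for E2 in ERalphaKO, -0.12 for genotype under placebo and -0.02 for genotype under E2, against medians over all genes of -0.00, 0.00, 0.01 and -0.00.

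**Figure D2:**
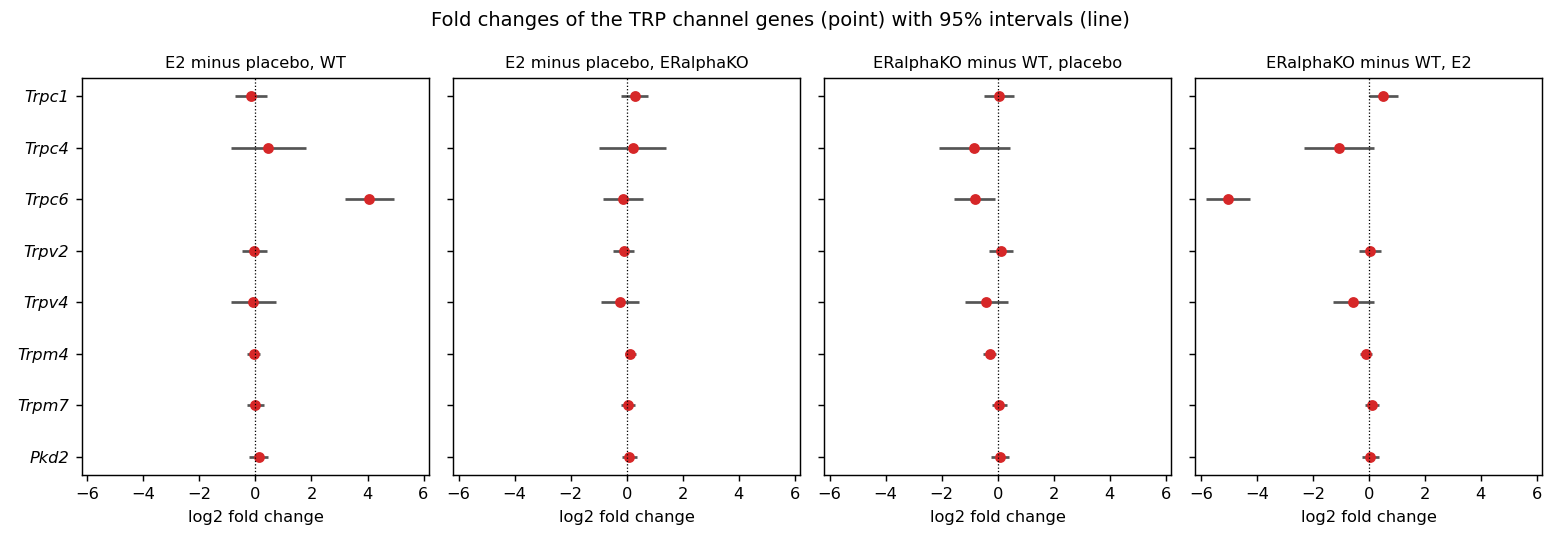
Log2 fold changes (x axis) of the 8 genes (y axis) in 4 contrasts, 1 per panel, as points with 95% intervals from the edgeR fit as lines. Trpc6 lies at 4.07 for E2 in WT and at -5.04 for ERalphaKO against WT under E2, values that are descriptions because Trpc6 was chosen for them, and at -0.14 for E2 in ERalphaKO. The intervals of the other 7 genes include 0 except for Trpm4 in ERalphaKO against WT under placebo.

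The members differed widely in level. On the scale of CPM per kilobase of the longest coding transcript in GENCODE M21, Pkd2 stood highest in every group, from 67.4 in WT under placebo to 75.7 in ERalphaKO under E2. Averaged over the 12 libraries, Trpv4 followed at 29.4, Trpm7 at 22.3, Trpv2 at 7.80, Trpm4 at 5.26, Trpc6 at 5.01, Trpc1 at 1.42 and Trpc4 at 0.346 CPM per kilobase. Among the 17 TRP channel genes that passed the filter on low counts, Trpc6 held rank 11 in WT under placebo (1.08 ± 0.403 CPM per kilobase, SD, n = 2) and rank 5 in WT under E2 (18.0 ± 5.16, n = 3), and rank 14 in both ERalphaKO groups. In WT under E2, Trpc6 was thus the TRPC gene with the highest level per length. Under placebo it stood beside Trpc1 (1.35 ± 0.0155), and Trpc2 (4.47 ± 1.00) stood above both.

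**Figure D3:**
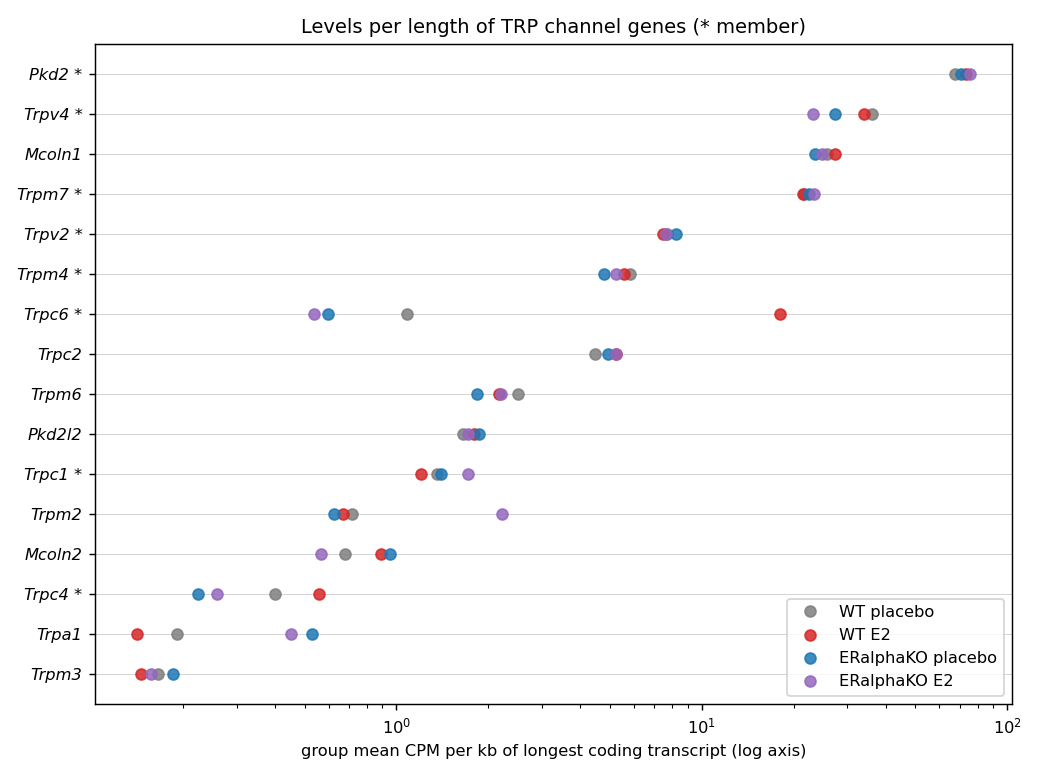
Group mean levels in CPM per kilobase of the longest coding transcript (log x axis) of TRP channel genes that passed the filter (y axis), coloured by group, with the 8 members starred. Trpc6 moves from 1.08 in WT placebo to 18.0 in WT E2, and Pkd2 stands highest in all 4 groups.

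Of the 20 other TRP channel genes, 9 passed the filter and 0 of these were called in any contrast by edgeR. Under placebo and under E2 1 of them each had an unadjusted p under 0.05 for genotype, as 8.93% and 11.5% of all genes did, so 1 in 9 is near the share of all genes. For genotype under E2, DESeq2 called Trpa1 among 491 genes. DESeq2 called no other gene of the 9 there. The 9 that passed the filter included the lysosomal channel gene Mcoln1 (45.1 to 65.2 CPM over the 12 libraries) and Trpc2 (10.8 to 17.9 CPM). They also included the magnesium channel gene Trpm6 (7.82 to 17.9 CPM), Trpm2, Pkd2l2 (5.57 to 8.05 CPM), Trpm3 (1.12 to 3.71 CPM), Mcoln2 (0.841 to 3.53 CPM) and the irritant sensor gene Trpa1. Trpc2 overlaps Xntrpc and Xndc1 on the same strand, so its counts are uncertain. Trpa1 held 0.235 to 0.939 CPM in the 5 WT libraries and 1.07 to 3.13 CPM in the 7 ERalphaKO libraries. Its genotype difference of 1.47 ± 0.51 under placebo and 1.68 ± 0.48 under E2 did not pass the test (edgeR, adjusted p = 0.457 and 0.165), though DESeq2 called the second. Libraries without overlap in the higher direction were found for 10.5% and 6.97% of all genes in these contrasts. The 11 other genes did not pass, with at most 57 counts over all 12 libraries together, and Trpc7 had 0.

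The genes around the channels were read from 3 lists of other pathway members. Of 28 upstream, partner and store-operated genes, 27 were tested and 0 were called by edgeR in any contrast, with 2 at an unadjusted p under 0.05 for E2 in WT (8.14% of all genes), 0 for E2 in ERalphaKO (5.7%), 3 for genotype under placebo (8.93%), 4 for genotype under E2 (11.5%) and 2 for the difference (6.78%). DESeq2 called 1 of them, the store-operated channel gene Orai2, for genotype under E2, among 491 genes that it called there. Pkd1, the polycystin-1 partner of Pkd2, gave 0.05 ± 0.26 with E2 in WT (adjusted p = 0.982), and Cav1, a caveolar scaffold of TRPC channels, -0.09 ± 0.16 (adjusted p = 0.938). Of 22 calcineurin and NFAT genes, the route by which calcium entry through TRPC6 reaches transcription in heart and kidney, 22 were tested and 1 was called, Camk4, a calcium and calmodulin dependent kinase. Camk4 stood at 34.2, 43.9 and 37.1 CPM in WT under E2 and at 22.2, 26.7 and 24.4 CPM in ERalphaKO under E2, without overlap (-0.65 ± 0.13, edgeR, adjusted p = 0.0476). In this contrast 0.647% of all genes were called lower and 8.94% were lower without overlap. With E2 in WT it gave 0.53 ± 0.15 (adjusted p = 0.275). By summed CPM the osteoblast and osteocyte markers were also higher in WT E2 (6193 to 10247 CPM) than in ERalphaKO E2 (5367 to 5700). By mean log2 CPM, WT E2 replicate 2 (8.68) lay within the range of the ERalphaKO E2 libraries (8.66 to 8.84). The part of these markers in the Camk4 call was not tested. At an edgeR unadjusted p under 0.05, 5 of the 22 stood for E2 in WT (8.14% of all genes) and 1 for E2 in ERalphaKO (5.7%). Genotype gave 1 under placebo (8.93%) and 6 under E2 (11.5%), and the difference gave 4 (6.78%). The counts of 5 and 6 come from contrasts that share the WT E2 libraries. Beside Camk4, the kinase gene Camk2a and the calcineurin regulator genes Rcan2 and Rcan3, named after their values were seen, were in both counts. With E2 in WT they gave -0.67 ± 0.23, -0.43 ± 0.18 and -0.26 ± 0.09 (edgeR, adjusted p = 0.429, 0.584 and 0.486), so none passed the test.

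Of 26 other mechanosensing and calcium channel genes, 24 were tested. With E2 in WT 1 was called higher, as 0.371% of all genes were, and under E2 1 was called higher in ERalphaKO. At an edgeR unadjusted p under 0.05, 1 of the 24 stood for E2 in WT (8.14% of all genes) and 3 for E2 in ERalphaKO (5.7%). Genotype gave 1 under placebo (8.93%) and 3 under E2 (11.5%), and the difference gave 2 (6.78%). Kcnk2, the stretch-activated potassium channel TREK-1, stood at 29.4 and 26.4 CPM in WT under placebo and at 75.7, 46.1 and 63.3 CPM under E2 (log2 fold change 1.14 ± 0.20, edgeR, adjusted p = 0.0437). In ERalphaKO it stood at 26.0 to 32.6 CPM under placebo and 28.3 to 39.8 CPM under E2 (0.19 ± 0.17, adjusted p = 0.991). The 3 WT E2 libraries of Kcnk2 stood above the other 9, as for Trpc6, and its E2 effect in ERalphaKO minus that in WT was -0.96 ± 0.26 (adjusted p = 0.414), a difference in E2 effect that edgeR did not call. Under E2 itself Kcnk2 was lower in all 3 ERalphaKO libraries than in any WT one, as 8.94% of all genes tested were. The log2 difference was -0.86 ± 0.18 (edgeR, adjusted p = 0.0505), and DESeq2 called this genotype difference. By summed CPM, the osteoblast and osteocyte markers given beside Trpc6 were highest in the same 3 libraries. The part of these markers in the Kcnk2 call was not tested. Cacna1h, a T-type calcium channel gene, stood at 0.141 to 0.461 CPM in WT under E2 and 0.971 to 2.53 CPM in ERalphaKO under E2 (2.56 ± 0.52, edgeR, adjusted p = 0.0467), where 0.452% of all genes were called higher, from 3 to 44 counts per library over all groups. The calls of Kcnk2, Camk4 and Cacna1h ended in 10, 10 and 11 of the 12 fits that left out 1 library each, WT placebo replicates 1 and 2 among them for all 3. Leaving out the granulocyte-rich libraries together ended these 3 calls as well (adjusted p = 0.0669, 0.170 and 0.171). Without WT placebo replicate 1 or 2 the adjusted p of Kcnk2 was 0.309 or 0.476. Piezo1, the stretch channel of loaded cartilage, listed under its older name and named after its values were seen, gave 0.03 ± 0.17 with E2 in WT (adjusted p = 0.988). The gap junction gene Gja1 and the calcium pump gene Atp2b4, the most counted of the list, gave -0.09 ± 0.17 and -0.34 ± 0.24 (adjusted p = 0.941 and 0.792).

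Among 12560 named genes with at least 1 CPM, the 8 whose log2 CPM followed Trpc6 most closely over the 12 libraries were Tmem86a, Myo5c, Pi15, Thbs1, Slc22a23, Gbp4, Siglec1 and Greb1, with Pearson correlations from 0.98 to 0.96. Each had its 3 WT E2 libraries above the other 9. Their levels differed widely, from a group mean of 14.9 CPM in WT under E2 for the myosin gene Myo5c to 596 CPM for the thrombospondin gene Thbs1. The sizes of the E2 difference differed as well: the transporter gene Slc22a23 went from 9.39 to 17.4 CPM and the estrogen target gene Greb1 from 0.187 to 22.9 CPM in WT. Such a likeness rests on 1 group of 3 libraries and is a description. Within the 7 ERalphaKO libraries the E2 and placebo groups of Trpc6 overlapped. Gbp4 was lower there under E2 (4.42 to 6.51 CPM) than under placebo (6.68 to 10.7 CPM), without overlap. Greb1 was higher, at 0.204 to 0.482 against 0.120 to 0.201 CPM. Of all genes tested, 5.67% had no overlap in this contrast in either direction. Within these 7 libraries the correlation with Trpc6 ran from -0.68 for Siglec1, a macrophage lectin, to 0.75 for Thbs1. It was 0.74 for Myo5c, 0.70 for Tmem86a, 0.68 for Slc22a23, 0.63 for Gbp4, 0.40 for Pi15 and 0.06 for Greb1. The granulocyte-rich ERalphaKO placebo replicate 3 was the highest of the 7 for Trpc6 (2.83 CPM), Tmem86a, Myo5c, Thbs1, Slc22a23 and Gbp4. That library was the lowest for Siglec1 (5.38 CPM), and neither extreme for Pi15 and Greb1. Its part in these correlations was not tested. Myo5c (0.204 to 0.736 CPM) and Greb1 (0.120 to 0.482 CPM) lay near the level of 3 counts in these libraries. By rank correlation 2 of the 8, Myo5c and Tmem86a, stayed among the 8 highest.

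**Figure D4:**
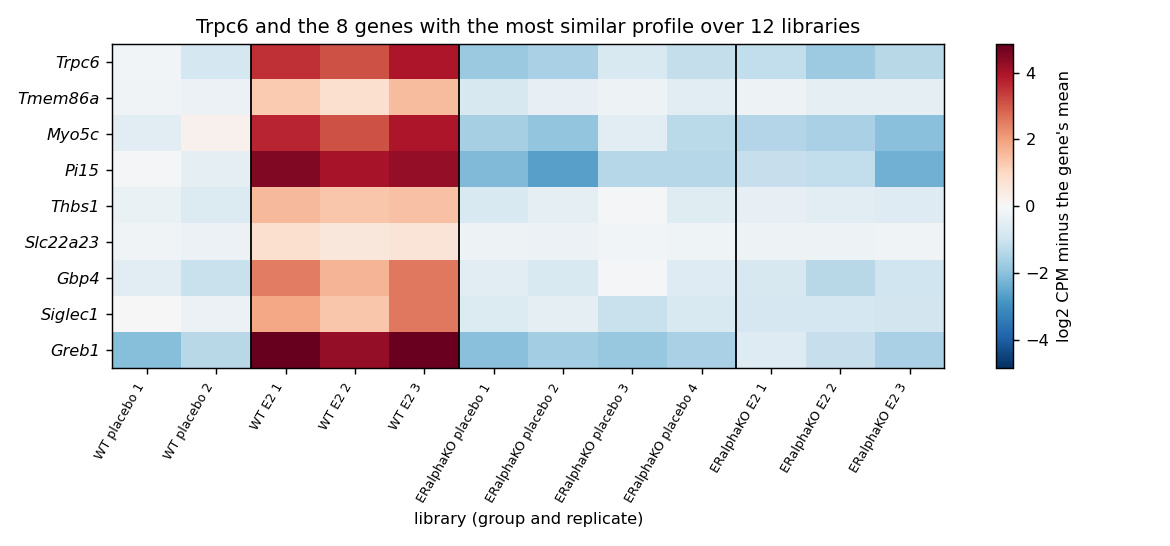
Heat map of log2 CPM minus each gene's own mean (colour scale) for Trpc6 and the 8 genes most like it (rows) in the 12 libraries by group (columns). The WT E2 libraries are the high ones in every row, and the step is smallest for Slc22a23, which goes from 9.39 to 17.4 CPM in WT.

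The other members had other nearest genes. Trpv4 was followed most closely by the potassium channel gene Kcna6 (Pearson correlation 0.98), the cartilage collagen gene Col27a1 (0.94) and Eps8l2 (0.93). Trpm7 was followed by Usp34, the BMP receptor gene Bmpr2 and Rabgap1l (0.96 to 0.95), and Pkd2 by Tdrd3, Zfp398 and Camsap2 (0.95 to 0.93). The nearest genes were Ifnar1, Zfp442 and Sav1 for Trpc1 (0.92 to 0.89), Ddx19a, Flywch1 and Pcdh9 for Trpc4 (0.90 to 0.86), Snrnp35, Slc25a24 and Aagab for Trpv2 (0.95 to 0.91) and, among others, Cars and Ddb1 for Trpm4 (0.86 and 0.85). Between members the highest correlations were those of Trpm7 with Trpc1 and with Pkd2 (both 0.70) and the lowest that of Trpv2 with Trpv4 (-0.61).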

How the data were processed

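RNA from all cells of the condylar fibrocartilage was sequenced from polyadenylated RNA. The authors deposited raw counts per gene for 12 libraries; reads were aligned with TopHat to mm9, per the submitters' processing notes, and the counting tool, its annotation and its use of strand are not given in the sources used here. From these deposited counts, genes passing filterByExpr (minimum count 10; 14832 of 23284) were fitted with edgeR 4.0.16 (R 4.3.3) quasi-likelihood tests, with TMM scaling, 1 mean per group over all 12 libraries and 8 residual degrees of freedom. P-values were adjusted by Benjamini-Hochberg over all tested genes, with a threshold of 0.05. SE is the log2 fold change over the root of F. CPM divides counts by the TMM-scaled library size, and log2 CPM adds a prior count of 2. In the smallest library 3 counts equal 0.315 CPM and in the largest 0.110 CPM, which covers counting error only. The fit was tested on simulated data.

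The members and gene lists were chosen with earlier results of these data known. Contrasts of Trpc6 that hold a WT group are descriptions. Genes named beyond the members were those called in a list, the most counted of each list, and the genes with the highest Pearson correlation of log2 CPM with a member (8 for Trpc6 and 3 for each other member, among named genes with a mean of at least 1 CPM). Others named are said to be so. Some genes that this rule covers are not reported here. Alternatives were another scaling, DESeq2 1.42.0, no filter, fewer groups, a replicate block, marker covariates and leaving out libraries. The authors' normalized table and comparison tables were not used.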

Additional observations from a re-analysis of the deposited data

Results flagged for a closer look

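Trpm2, a channel of granulocytes and other immune cells, stood at 10.8 CPM in ERalphaKO placebo replicate 3, far from the other 3 libraries of that group at 1.80 to 2.82 CPM. It was the 1 flag among 17 genes examined in the ERalphaKO placebo group by a test on the gap of the extreme library, and chance flags about 1 in 20. The other groups had too few libraries for this test and were not examined. The 10 granulocyte markers summed to 16871 CPM in that library, and their part in the Trpm2 value was not tested. Trpm2 was highest of all, at 39.9 CPM, in ERalphaKO E2 replicate 1, the other library with many granulocyte marker counts and one that this test did not cover.

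The E2 effect on Trpc6 differed between the genotypes by -4.21 on the log2 scale (ERalphaKO minus WT). It is listed here as a difference between groups and is a description, because the WT effect chose the gene.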

How the results depend on the processing

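Results for the 7 members other than Trpc6 stayed uncalled in all 693 values under the alternatives, and 50 of these reversed in sign, none larger than 0.74. Trpc6 kept its sign in every alternative in the contrasts of E2 in WT and of the genotypes under E2.

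Trpc6 was chosen on the WT contrasts, so the counts that include it only describe the fits. The count of members past the threshold for E2 in WT was 1, Trpc6, and 0 when only the groups compared were fitted; leaving out 1 library gave 0 to 1, with 0 without WT placebo replicate 2. For the difference of the E2 effect it was 1, Trpc6, and 0 with the skeletal muscle covariate. Only 5 of the 12 fits that left out 1 library kept this call.

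All genes past the threshold numbered 68 for E2 in WT, 2 for genotype under placebo, 163 for genotype under E2 and 8 for the difference. DESeq2 gave 246, 151, 491 and 101 for these in turn. Fitting only the groups compared gave 7 for E2 in WT, 0 for genotype under placebo and 66 for genotype under E2. The replicate block gave 18, 0, 62 and 3 for the 4 contrasts; the skeletal muscle covariate gave 40, 1, 95 and 0; and the granulocyte covariate gave 21 for the difference. With the granulocyte-rich libraries left out, a setting chosen after the data were seen, the counts were 57 for genotype under placebo, 70 for genotype under E2 and 12 for the difference. Leaving out 1 library gave 1 to 131, 1 to 4, 51 to 236 and 0 to 31. The causes were not tested. E2 in ERalphaKO had 0 throughout.

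Reversed values were these. Under the replicate block, E2 in WT gave 0.020 for Trpv4 and 0.028 for Trpm7, genotype under placebo gave -0.043 for Trpc1 and the difference gave 0.23 for Trpc4. With the muscle covariate, E2 in WT gave 0.014 for Trpm7, genotype under E2 gave -0.030 for Pkd2 and the difference gave 0.74 for Trpc4. With the granulocyte covariate, E2 in WT gave 0.043 for Trpv2, genotype under E2 gave -0.095 for Trpv2 and the difference gave 0.050 for Pkd2. Without the granulocyte-rich libraries, E2 in ERalphaKO gave -0.084 for Trpc4 and -0.057 for Trpm7, genotype under E2 gave -0.034 for Trpv2 and the difference gave -0.049 for Trpm7. With 1 library left out, E2 in WT ranged from -0.18 to 0.053 for Trpm4, -0.082 to 0.056 for Trpm7, -0.21 to 0.13 for Trpv2 and -0.40 to 0.32 for Trpv4. E2 in ERalphaKO ranged from -0.077 to 0.60 for Trpc4, -0.27 to 0.10 for Trpc6, -0.025 to 0.13 for Trpm7 and -0.23 to 0.075 for Trpv2. Genotype under placebo ranged from -0.095 to 0.14 for Trpc1 and -0.060 to 0.28 for Trpv2. Genotype under E2 ranged from -0.027 to 0.16 for Pkd2 and -0.074 to 0.23 for Trpv2. The difference ranged from -0.12 to 0.098 for Pkd2, -0.92 to 0.19 for Trpc4, -0.022 to 0.14 for Trpm7, -0.24 to 0.12 for Trpv2 and -0.55 to 0.16 for Trpv4.

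The labels' replicate numbers were not taken to pair the libraries, because 9 and not all of 15 same-number pairs had a correlation over 0.1. The median correlation was 0.22 for same-number pairs (-0.38 to 0.57) and -0.03 for other pairs. The 6 pairs of replicate 2 libraries lay at 0.25 to 0.54, and 5 of 12 libraries correlated best with their own number. With 2 WT placebo libraries, values that rest on that group rest on the fewest libraries, and counts as low as 3 limit Trpc4.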
